A study of Arabidopsis thaliana with 3 samples.

Results

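Long non-coding RNA (lncRNA) and antisense RNA genes were examined for binding of BDH1 in inflorescences of Arabidopsis thaliana. The genes were all those typed lncRNA or antisense_RNA on chromosomes 1 to 5 in the RefSeq gene table of assembly TAIR10.1. There were 3559 of them among 37899 genes, made up of 3480 lncRNA genes and 79 antisense RNA genes. They were divided by place, from the table alone, into 1500 that overlapped a protein-coding gene, 711 that lay within 500 bp of one, and 1348 that lay farther away. These 3 classes are called overlapping, near and far. All 79 antisense RNA genes were in the overlapping class. In this table every one of the 3559 genes carries its locus identifier as its symbol, so genes are named here by locus.

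BDH1 is a BCL-domain homolog protein that the series title places with the SWI/SNF complex. SWI/SNF complexes use ATP to move or remove nucleosomes, and so change how open the DNA of promoters and other regulatory sites is. Long non-coding RNAs are transcripts with no evident protein product. In plants some of them are transcribed across or beside a protein-coding gene and take part in its regulation, as the antisense transcripts of the flowering repressor FLC do, while others come from their own intergenic units. Antisense RNA genes are read from the strand opposite to another gene.

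The study immunoprecipitated chromatin with an anti-FLAG antibody and sequenced it (ChIP-seq). The samples used here were 2 replicates of plants with the genotype bdh1-1 BDH1-FLAG, that is, the bdh1-1 mutant carrying a FLAG-tagged BDH1 transgene. A sample of wild-type inflorescences with no tagged protein was also made but was not analysed here, which leaves 1 group and no comparison between groups. Peaks were thus not set here against an untagged background, and their specificity for the tagged protein was not tested. The labels do not name the promoter of the transgene or say whether the replicates came from separate plants, so the spread between them may be technical. The authors' list of peaks held 16653 intervals in replicate 1 and 16413 in replicate 2, and the read depth behind them is unknown. A gene is called occupied here where a peak of each list overlapped it by 1 bp or more.

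Of the 3559 genes 683 were occupied by BDH1-FLAG, or 19.2% (exact 95% interval 17.9% to 20.5%). The background, over all 37899 genes, was 36.3%, and protein-coding genes stood at 45.4%. In replicate 1 alone 818 of the lncRNA and antisense RNA genes had a peak and in replicate 2 alone 775, a mean of 22.4% ± 0.854 (SD, n = 2). The classes differed by more than this spread. The overlapping class held 518 occupied genes, or 34.5% (exact 95% interval 32.1% to 37.0%), which is near the background. The near class held 68, or 9.56% (7.50% to 11.97%), and the far class held 97, or 7.20% (5.87% to 8.71%). The intervals of the near and far classes overlap, whereas that of the overlapping class stands clear of both. Intervals cover counting error only, and no test of these differences was run.

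**Figure D1:**
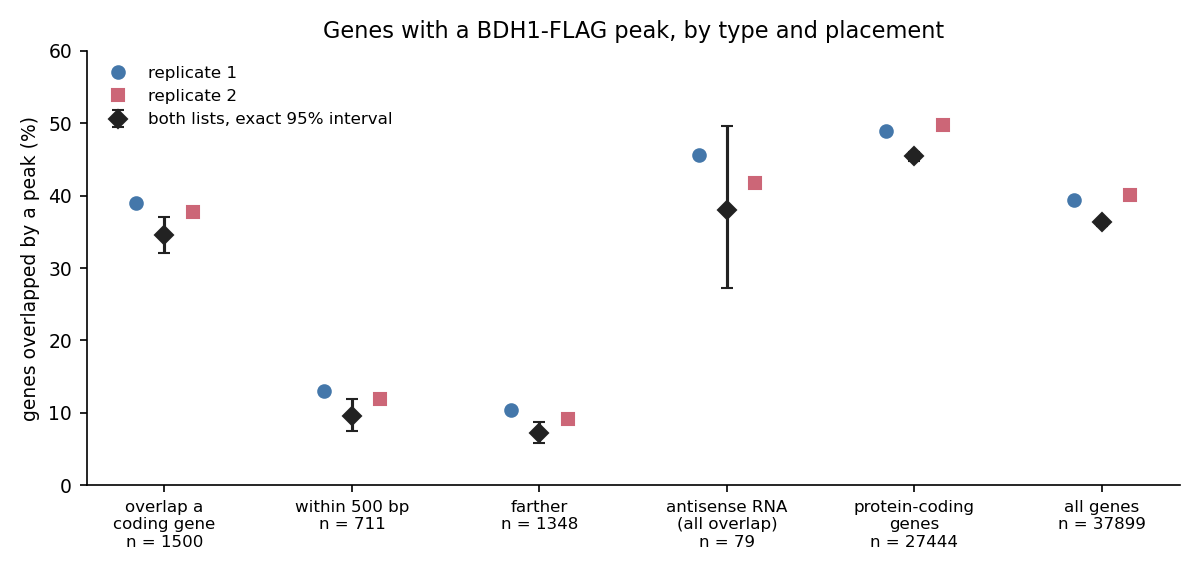
Share of genes overlapped by a BDH1-FLAG peak (y axis, percent) for each class and type of gene (x axis, with the number of genes). Circles and squares are replicates 1 and 2, and diamonds are genes with a peak in both lists with their exact 95% interval; the overlapping class (34.5%) lies far above the near (9.56%) and far (7.20%) classes and near all genes (36.3%).

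Of the genes in the last 100 bp inside the class boundary of 500 bp 23 of 162 were occupied (14.2%, exact 95% interval 9.22% to 20.5%), and of those in the first 100 bp beyond it 14 of 149 were (9.40%, 5.23% to 15.3%), with overlapping intervals. Within the near class the share was 5.74% of the 122 genes up to 100 bp away, 9.71% of the 206 from there to 250 bp and 10.7% of the 383 from there to 500 bp. In the far class it was 7.79% up to 1000 bp (526 genes), 8.10% from there to 2000 bp (432 genes), 6.64% from there to 5000 bp (271 genes) and 2.52% beyond 5000 bp (119 genes). The exact 95% intervals of neighbouring bands overlap throughout. Around far genes it also moved with the number of protein-coding genes within 50 kb, from 0.855% (1 of 117) with 0 to 9 of them, through 4.35% (10 of 230) with 10 to 19 and 7.37% (55 of 746) with 20 to 29, to 12.2% (31 of 255) with 30 or more. The other classes rose likewise between the same end ranges. The overlapping class went from 4.76% (1 of 21) to 38.6% (264 of 684), and the near class from 0 of 12 to 11.4% (29 of 254). The share moved little between chromosomes, from 18.0% on chromosome 3 to 20.3% on chromosome 1.

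Length entered every one of these counts. The lncRNA and antisense RNA genes were short, with a median of 338 bp and a range of 96 to 9515 bp, against a median of 2078 bp for protein-coding genes. In each of the 3 length ranges under 1200 bp the overlapping class had the highest share of the 3 classes. Under 300 bp, 25.1% of the 502 overlapping genes were occupied, against 7.90% of the 329 near genes and 4.25% of the 588 far genes. Protein-coding genes of that length stood at 14.1% (64 of 455). From 300 to under 600 bp the values were 31.3% overlapping, 10.2% near and 8.22% far, and 7.93% of the protein-coding genes. From 600 to under 1200 bp they were 39.6%, 14.1% and 12.1%, and 21.2% of the protein-coding genes. Overlapping genes of 1200 bp or more reached 55.6% (138 of 248), beside 53.0% of the protein-coding genes in that range. Only 5 near and 8 far genes were as long, of which 1 and 6 were occupied.

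**Figure D2:**
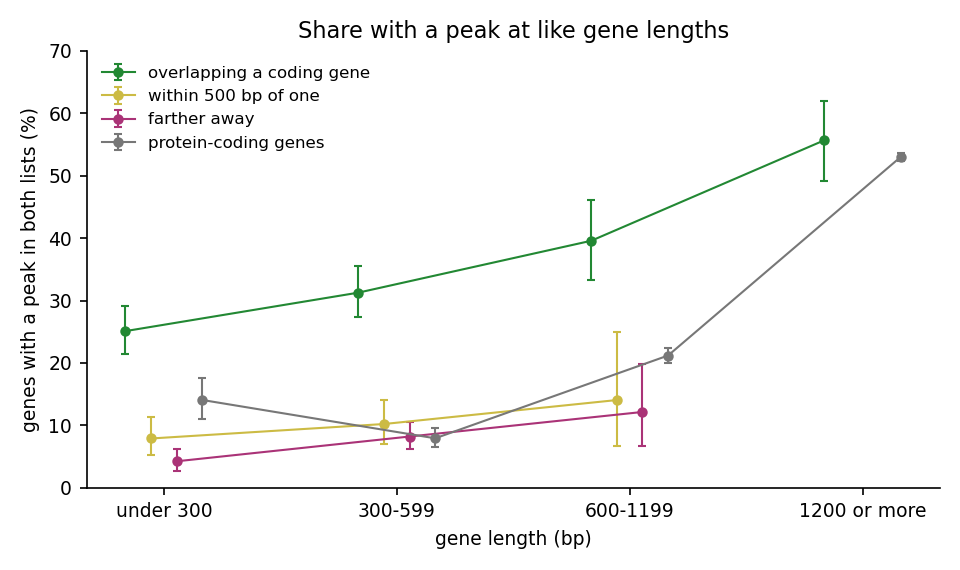
Share of genes with a peak in both lists (y axis, percent, with exact 95% intervals) in 4 ranges of gene length (x axis, bp) for the 3 classes and for protein-coding genes; points with fewer than 20 genes are left out. The overlapping class runs from 25.1% to 55.6% and lies above the near and far classes in each range they share.

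To set gene length aside, the share of bases covered by peaks was measured at each place. Each base was placed by its own distance, so bases outside protein-coding genes include parts of genes of the overlapping class. Bases of lncRNA and antisense RNA genes that lay inside protein-coding genes were covered to 21.7% in replicate 1 and 21.6% in replicate 2. The other bases of protein-coding genes were covered to 12.2% and 12.3%. Within 500 bp of a protein-coding gene the values were 12.2% and 10.9% for bases of the non-coding genes, and 5.99% and 5.43% for bases outside all genes. Farther away they were 8.54% and 7.58%, against 2.10% and 1.58% for bases outside all genes. At each place the non-coding genes were the more covered in both replicates, by mean ratios of 1.77, 2.01 and 4.38, and the 2 replicates lay closer together than the 2 kinds of bases did. Pseudogene bases farther than 500 bp from a protein-coding gene were covered to 0.332% and 0.344%. Taken by class of gene instead, coverage was 20.6% and 20.3% for the overlapping class. It was 8.96% and 8.16% for the near class and 7.85% and 6.71% for the far class.

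The difference held at every distance examined. Inside protein-coding genes and more than 500 bp from a gene end, bases of the non-coding genes were covered to 14.7% ± 0.211 (SD, n = 2), against 6.30% ± 0.125 for the remaining coding-gene bases. Over 250 and up to 500 bp inside a gene end the values were highest, 30.1% ± 0.327 against 22.8% ± 0.439. Outside coding genes the coverage of non-coding genes was 14.0% ± 0.424 up to 100 bp from a gene end and 9.68% ± 0.632 over 500 and up to 1000 bp from one, where bases outside all genes had 8.59% ± 0.255 and 3.20% ± 0.593. Beyond 5000 bp the coverage of non-coding genes was 4.09% ± 0.0193 against 0.135% ± 0.0622, over 54965 bp of non-coding genes. Few genes lay behind this value, which the SD between replicates does not show. Of the 119 far genes beyond 5000 bp 3 were occupied. Among them was AT2G09795, with 44.6% and 46.6% of its 2861 bp covered. Coverage also moved with the number of protein-coding genes around. More than 500 bp from coding genes, in windows of 100 kb with 0 to 9 protein-coding genes, bases of the non-coding genes were covered to 3.29% ± 0.326 and other bases to 0.0704% ± 0.0236. The first value comes from 57323 bp and leans on 1 gene. Of the 117 far genes with 0 to 9 protein-coding genes within 50 kb, only AT2G09795 was occupied. In windows with 30 or more the values were 15.2% ± 1.94 and 4.50% ± 0.926. Sequence to which reads cannot be mapped was not left out of the bases outside genes, and its part in the result was not tested.

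**Figure D3:**
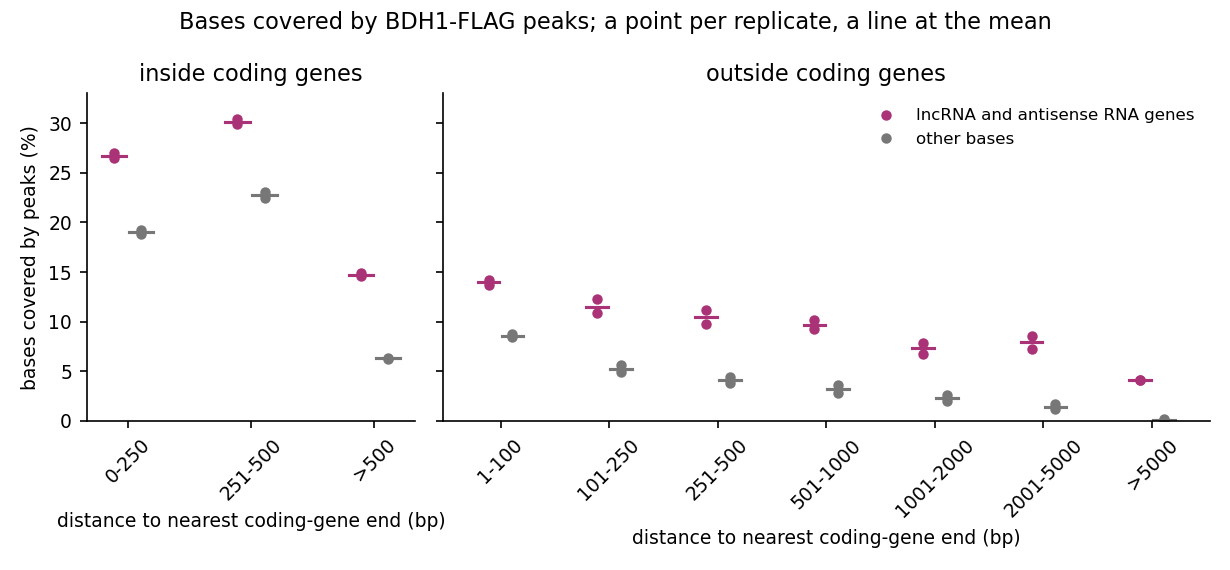
Bases covered by BDH1-FLAG peaks (y axis, percent) inside (left) and outside (right) protein-coding genes, by distance to the nearest end of a coding gene (x axis, bp), for lncRNA and antisense RNA genes and for the other bases (outside coding genes, those in no gene). Each point is a replicate and each line the mean of the 2; the non-coding genes lie higher in all 10 distance bands, for example 9.68% against 3.20% over 500 and up to 1000 bp away.

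Peaks at overlapping genes could lie on the protein-coding gene as well. For each gene the peak with the highest fold enrichment among those overlapping it was taken as its highest peak. Over the 683 occupied genes these were 658 different peaks in replicate 1 and 656 in replicate 2. Sharing was more common in the far class, whose 97 occupied genes had 86 and 85 different highest peaks. The exact intervals count genes that share a peak separately. In the overlapping class the highest peak also lay on a protein-coding gene in both lists for 494 of 518 genes (95.4%, exact 95% interval 93.2% to 97.0%). Position fixed this for the 324 occupied genes that lay wholly inside a protein-coding gene, since any peak on them is also on that gene. Among the other 194 it was so for 170 (87.6%, 82.2% to 91.9%). The same held for 22 of 68 near genes (32.4%) and 2 of 97 far genes (2.06%). For 87 of the 97 far genes the highest peak touched no protein-coding gene in either list. Of all peaks that met no protein-coding gene, 215 of 2227 in replicate 1 (9.65%) and 189 of 1900 in replicate 2 (9.95%) overlapped an lncRNA or antisense RNA gene. Over all peaks of each list the shares were 5.11% (851 of 16653) and 4.905% (805 of 16413).

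The summit, the position of greatest enrichment in a peak, showed the same division. In the overlapping class it lay inside both the non-coding gene and a protein-coding gene for 54.6% of the genes in replicate 1 and 54.4% in replicate 2. It lay in a protein-coding gene but outside the non-coding one for 37.6% and 38.2%, and in the non-coding gene alone for 6.56% and 6.18%. In the far class the summit was inside the non-coding gene for 58.8% and 54.6%. It lay outside both that gene and every protein-coding gene for 39.2% and 44.3%, where it could still fall in another non-coding gene. The summits of a gene's highest peaks lay a median of 81 bp apart in the 2 lists, and within 100 bp of each other for 387 of the 683 genes (56.7%).

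**Figure D4:**
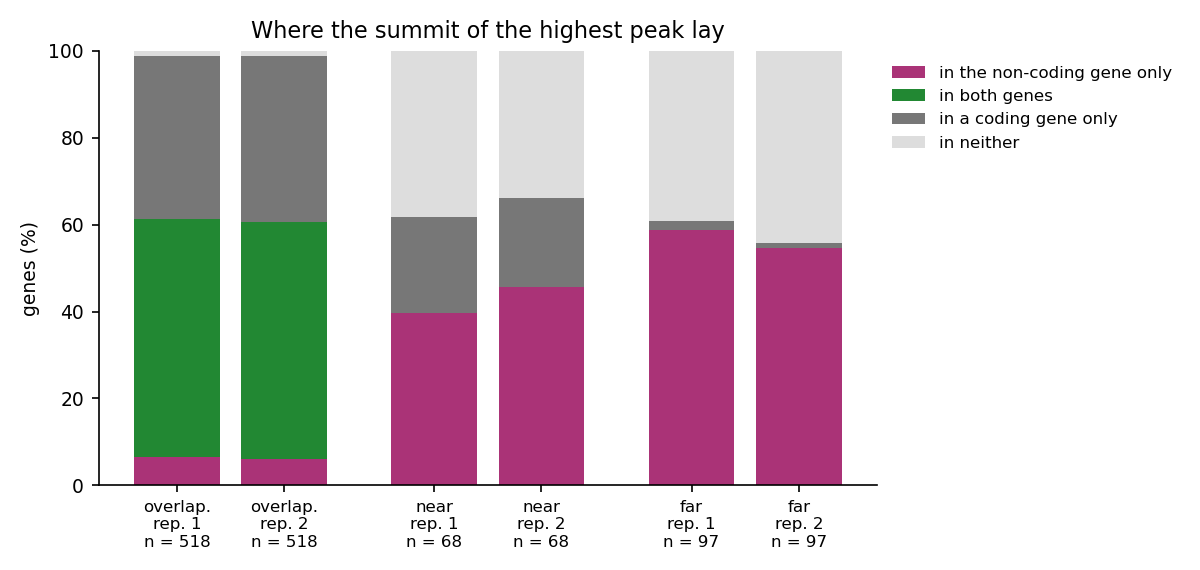
Place of the summit of the highest peak at genes with a peak in both lists, as a share of genes (y axis, percent, stacked), for the 3 classes in replicates 1 and 2 (x axis, with the number of genes). In the overlapping class 54.6% and 54.4% of the summits lie in both genes, and in the far class most lie in the non-coding gene alone (58.8% and 54.6%).

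Non-coding genes were occupied more often where their protein-coding neighbour was. Of the 876 overlapping genes with an occupied protein-coding partner, 496 (56.6%) were occupied as well, against 22 of the 624 (3.53%) whose partner was not. Genes wholly inside a protein-coding gene could not be occupied without it. With these left out, the shares were 71.1% (172 of 242, exact 95% interval 64.9% to 76.7%) and 7.83% (22 of 281, 4.97% to 11.6%). Among near genes the shares were 22.2% (56 of 252) and 2.61% (12 of 459), with the nearest protein-coding gene as the partner. Among far genes they were 12.9% (71 of 552) and 3.27% (26 of 796). In 63 of those 71 far cases the highest peak touched no protein-coding gene in either list. No test was run on these counts, since a shared peak counts for both genes.

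Seen from the coding side, 1594 protein-coding genes (5.81%) were overlapped by a lncRNA or antisense RNA gene. They were occupied in 56.1% of cases (exact 95% interval 53.7% to 58.6%), against 44.8% (44.1% to 45.4%) of the 25850 other protein-coding genes. Below 600 bp the shares were 20.4% (10 of 49) and 9.22% (156 of 1692). From 600 to under 1200 bp the shares were 42.1% (98 of 233) and 20.0% (788 of 3948), and from 1200 to under 2400 bp 57.3% (356 of 621) and 45.0%. From 2400 to under 4800 bp they were 62.4% and 59.4%, and at 4800 bp or more 62.3% and 62.6%. The exact 95% intervals overlap below 600 bp and in both ranges from 2400 bp up.

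Genes that overlap a protein-coding gene do so in several ways. The occupied share was 33.2% of the 977 genes that lay wholly inside a protein-coding gene, with a median length of 341 bp, and 31.9% of the 430 that overlapped one in part, with a median of 471 bp. It was 61.3% of the 93 that held a whole protein-coding gene, whose median length was 2435 bp.

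Antisense RNA genes were occupied in 30 of 79 cases (38.0%, exact 95% interval 27.3% to 49.6%). This compares with 34.3% (31.9% to 36.9%) of the 1421 overlapping lncRNA genes and with the background of 36.3%, and the intervals overlap. In replicate 1 the share was 45.6% and in replicate 2 it was 41.8%. These genes were very short, with a median of 190 bp, and 75 of the 79 lay wholly inside a protein-coding gene. Of the 68 under 300 bp, 33.8% (22.8% to 46.3%) were occupied. The protein-coding partner was occupied for 59 of the 79. These include all 30 occupied antisense RNA genes, which position fixed for the 28 of them that lay wholly inside the protein-coding gene. The summit lay outside the antisense RNA gene in most cases, since it fell inside for 11 of the 30 in replicate 1 and for 8 in replicate 2.

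The antisense RNA gene with the best placed peaks was AT2G09785, which is 168 bp long and lies inside UBQ6 (AT2G47110), a gene for ubiquitin fused to a ribosomal protein. Peaks at chr2:19343831-19345584 in replicate 1 and chr2:19343984-19345427 in replicate 2 spanned all of it. Their fold enrichments were 4.11 and 4.16, ranks 114 and 15. Ranks count from the highest fold enrichment in each authors' list, and coordinates are those of the lists, made with build TAIR10 per the submitters' processing notes. Both summits lay in UBQ6 outside the antisense RNA gene. AT3G01005, inside AT3G01360, was covered in full in replicate 1 (rank 548) but to 22.3% in replicate 2 (rank 96). AT2G08915, which overlaps the haem-binding protein gene SOUL-1 in part, had its highest peaks at ranks 550 and 202; these touched no protein-coding gene, and their summits lay outside both genes. AT3G01135, inside AT3G02700, was covered in full in both lists at ranks 1058 and 386. AT3G04685, inside MBF1C, a transcriptional coactivator of the heat response, was covered to 62.5% at rank 509 in replicate 1 and to 34.7% at rank 1338 in replicate 2.

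Among all overlapping genes the best placed was the lncRNA gene AT4G06335, which overlaps RALFL33 in part. RALFL33 codes for a secreted RALF signalling peptide. Its peak lay at chr4:8984664-8986037 in replicate 1 and at chr4:8984596-8985733 in replicate 2. The fold enrichments were 4.39 and 4.10, ranks 57 and 23. The peaks covered 77.5% and 65.1% of the lncRNA gene, and both summits lay in RALFL33 alone. AT1G04043, inside the NAC transcription factor gene ATAF1, came next with ranks 113 and 22, but only 27.6% and 20.3% of it was covered. AT2G09785 followed, and then AT1G06083, inside AT1G27300, at ranks 212 and 84. AT5G08950, inside AT5G60050, was covered in full at ranks 259 and 93, and of these 5 genes it alone held the summits itself, at position 24185461 of chromosome 5 in replicate 1 and 24185505 in replicate 2.

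Several partners are well-studied regulators, and the following were picked after their values had been seen. AT5G02455, a lncRNA gene of 449 bp inside the floral organ identity gene SEP1, was covered in full in both lists, with fold enrichments of 3.25 and 3.22 and both summits inside it. AT2G08795, inside the growth-regulating factor gene GRF3, was also covered in full, with fold enrichments of 3.61 and 2.92, but its summits lay in GRF3 outside it. AT2G45685, which overlaps the TCP transcription factor gene TCP9 in part, was covered to 100% and 93.4%, and held both summits.

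AT2G33815, inside SPL3, a promoter of the change to flowering, was covered to 40.0% and 82.3%, with fold enrichments of 2.60 and 2.44. AT1G03993, inside DCL1, which cuts microRNA precursors, was covered to 59.4% and 70.3%. AT5G02045, which overlaps the jasmonate repressor gene JAZ10 in part, was covered to 77.8% and 12.8%, with both summits in JAZ10 alone. AT5G09405, inside the bromodomain protein gene GTE7, was covered to 78.1% and 75.0% at ranks 274 and 257.

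AT5G01675, a lncRNA gene of 6230 bp that holds all of FLC, was not occupied. Replicate 1 had none, and replicate 2 had a narrow one at chr5:3178996-3179222, with a fold enrichment of 1.88, rank 13538 and 3.64% of the lncRNA gene covered. FLC itself was not occupied either.

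In 22 cases of the overlapping class the lncRNA gene was occupied while its protein-coding partner was not. The summit lay in the lncRNA gene alone in both lists for 15 of these. None of the 22 was among the 1000 highest peaks of both lists, and the best had 1405 as its lower rank. An example, picked after its values had been seen, is AT1G67365, which overlaps in part ASY1, a gene for a protein of the meiotic chromosome axis. Its peaks lay at chr1:25238432-25239045, with a fold enrichment of 2.35, and chr1:25238366-25238851, with 2.197.

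The near class held the highest peak of all, at AT4G07070, which lies 318 bp from AT4G22320, the locus known as BDH1. It was covered in full in both lists, at rank 1 in each, with fold enrichments of 14.4 and 7.53. Both summits lay in AT4G07070 alone, but the peak also reached a protein-coding gene in both lists. The number of copies of the BDH1 locus in the transgenic plants is not known, and whether that set the height of the peak was not tested. AT5G08975, 52 bp from OBP4, a DOF transcription factor gene, was at ranks 13 and 84, but its peaks covered only 22.7% and 12.5% of it, and their summits lay in OBP4. AT5G15022, 15 bp from AT5G15025, was covered in full at ranks 155 and 187, with both summits inside it. AT1G09307, 149 bp from the jasmonate repressor gene JAZ6, was covered to 100% and 97.3%, with the summits in JAZ6. AT4G38932, 34 bp from AT4G38930, was covered to 81.8% and 72.2% and held both summits.

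In the far class the best placed gene was AT2G09795, of 2861 bp, whose nearest protein-coding gene is 17671 bp away and which overlaps the pseudogene AT2G09800. Its highest peak lay at chr2:3671885-3672803 in replicate 1 and at chr2:3671938-3672796 in replicate 2. The fold enrichments were 3.77 and 4.06, ranks 294 and 31. With a further, lower peak in each list 44.6% and 46.6% of the gene was covered, and both summits lay inside the gene. AT2G08735, at ranks 545 and 246, was covered in full by a broad peak, chr2:14906456-14909871 in replicate 1, that also reached a protein-coding gene.

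AT3G04775, a gene of 687 bp that lies 644 bp from ROPGEF8, a gene for an exchange factor of ROP GTPases, was covered in full at ranks 473 and 25. AT1G07323, 1824 bp from WPP2, was covered in full at ranks 297 and 660, with its summits outside it and outside every protein-coding gene. AT3G09775, 2940 bp from AT3G62499, was covered in full at ranks 727 and 305 and held both summits. AT5G09505, 661 bp from AT5G65860, was covered in full at ranks 1469 and 817. ROPGEF8, AT2G35460 and AT2G09388, the nearest protein-coding genes of AT3G04775, AT2G08735 and AT2G09795 did not meet the criterion of a peak in each list.

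Peaks at far genes were lower in their lists than those at overlapping genes. The median rank by fold enrichment, as a percentage of the list with the highest peak near 0, was 32.2% in replicate 1 and 33.7% in replicate 2 for the overlapping class. It was 33.9% and 46.6% for the near class and 55.0% and 60.7% for the far class. All peaks with a partner in the other list had medians of 42.8% and 44.0%. The median fold enrichment was 2.498 and 2.44 at overlapping genes and 2.19 and 2.11 at far genes. Over the 683 genes the ranks in the 2 lists had a Spearman correlation of 0.668, a description in which genes that share a peak are counted more than once. Genes with a peak in only 1 list numbered 115, 42 and 70 in the 3 classes, and their peaks had median ranks of 11407, 12192 and 13338.

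**Figure D5:**
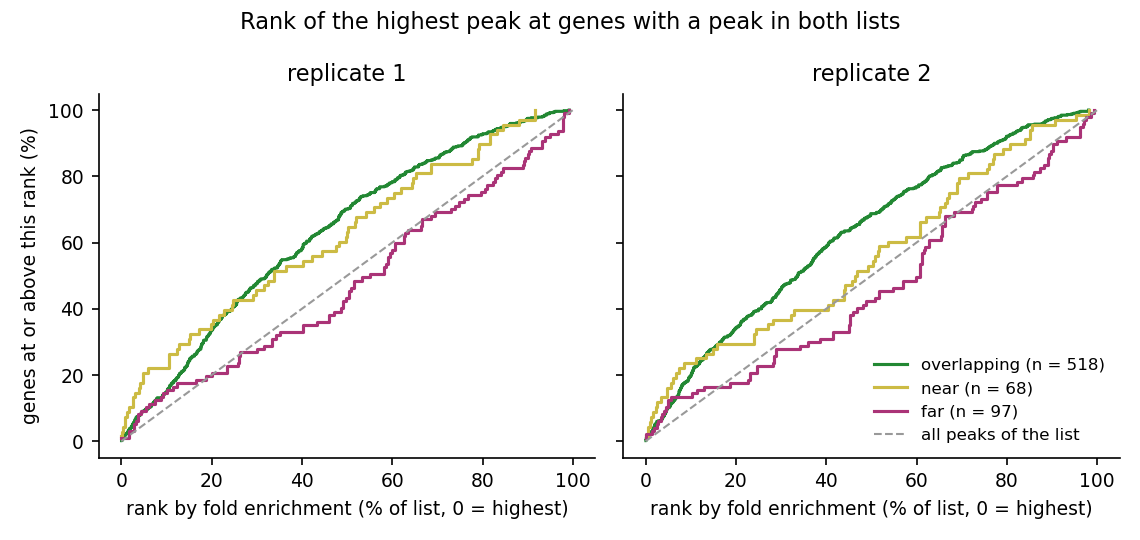
Cumulative share of genes (y axis, percent) against the rank of their highest peak by fold enrichment (x axis, percent of the list, 0 is the highest peak), for genes with a peak in both lists, in replicates 1 and 2. The overlapping class rises above the dashed line of all peaks (medians 32.2% and 33.7%) and the far class runs mostly below it (medians 55.0% and 60.7%).

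Non-coding genes that overlap a small nucleolar RNA (snoRNA) gene were occupied at a high share. The snoRNAs guide chemical modification of ribosomal RNA, and in plants they are often made in clusters from longer precursor transcripts. Of the 25 lncRNA genes that overlapped a snoRNA gene, 21 were occupied (84.0%, exact 95% interval 63.9% to 95.5%), against 18.7% (17.5% to 20.1%) of the 3534 others. Outside protein-coding genes this was 18 of 20 (90.0%, 68.3% to 98.8%), made up of 8 of 9 near genes and 10 of 11 far genes, against 7.21% (6.12% to 8.42%) of the 2039 others. This group was chosen after its values had been seen. It includes AT4G07070 beside BDH1, AT5G15022, which overlaps 4 snoRNA genes (AT5G02295, AT5G02305, AT5G02315 and AT5G02325), AT3G04775, which overlaps 3, and AT5G09505.

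The snoRNA genes themselves were occupied in 80.9% of cases (38 of 47) where a lncRNA gene overlapped them and in 64.2% (154 of 240) where none did, with overlapping intervals of 66.7% to 90.9% and 57.7% to 70.2%. Neighbouring snoRNA genes can share a peak, as the 4 at AT5G15022 did, and the intervals count them separately. Shares were lower beside microRNA and snRNA genes, though few genes were counted. Of 14 lncRNA genes that overlapped a microRNA gene 2 were occupied (14.3%, exact interval 1.78% to 42.8%). Of 10 that overlapped an snRNA gene 1 was (10.0%, 0.253% to 44.5%). Both intervals include the background of 36.3%. Of 2 that overlapped a tRNA gene 1 was occupied. AT4G07070, which was occupied, overlaps both a microRNA and a snoRNA gene, so these groups are not separate. Of the 97 occupied far genes, 73 overlapped no annotated gene of another type and 10 overlapped a snoRNA gene.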

How the data were processed

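Per the submitters' processing notes, Bowtie2 2.5.2, SAMtools, bedtools 2.31.1, MACS2 2.2.9.1 and build TAIR10 were used; their settings and the control are not given in the sources used here. The authors deposited 1 peak list per BDH1-FLAG replicate, each peak with a fold enrichment (a ratio), −log10 p and q-values and a score. The score was not used, and fold enrichment only ranked peaks within its list. Read depth is unknown.

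Genes came from the RefSeq table of TAIR10.1, whose coordinates are not printed and which gives no strand. Its match to the lists was checked by shifting coding-gene ends. Unshifted, 41.2% and 42.3% of summits lay within 250 bp of an end, against 21.9% to 23.7% at shifts of 2 to 10 kb.

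Overlap needed 1 bp. Distance ran from the last base of one gene to the first of the other. Intervals are exact Clopper-Pearson binomial ones at 95% (SciPy 1.17.1, Python 3.11.15). Overlap code was tested on simulated data. Named genes were the 5 best per class, and among antisense RNA genes, by the lower of their ranks in the 2 lists. Added to them were the 5 far genes best by that rank among those covered in full in both lists. Other names are marked as picked after seeing values. Genes and lists were chosen with earlier results of these data known.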

Additional observations from a re-analysis of the deposited data

How the results depend on the processing

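The share with a peak fell from the overlapping to the near to the far class under both stricter thresholds, with coverage of at least 50% and in either list alone, but not when a summit had to lie inside the gene, where near (2.81%) was below far (3.19%). With peaks of −log10 q 5 or more the shares in the overlapping, near and far classes were 24.0%, 5.63% and 3.34%, and at 10 they were 8.27%, 2.53% and 1.19%. The summit rule gave 18.7% for the overlapping class, and the coverage rule 18.5%, 5.77% and 4.45% for the 3 classes. One list alone gave 37.7% to 39.0%, 12.0% to 13.1% and 9.20% to 10.4%. Taking near as within 250 bp gave it 8.23% and the far class 7.97%, and as within 1000 bp 8.81% and 6.81%. Leaving out genes that overlap a gene of another type gave 5.98% for the far class, and leaving out those with a snoRNA gene, an alternative chosen after seeing the data, 8.55% for the near class.

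In place of 683 genes, 445 were counted at −log10 q 5 or more, 158 at 10 or more, 343 by summit and 378 by coverage, since each rule keeps fewer peaks or genes; one list alone gave 775 to 818. In the same order lncRNA genes stood at 12.2%, 4.25%, 9.66% and 10.3% (21.3% to 22.5% from one list) and antisense RNA genes at 27.8%, 12.7%, 8.86% and 24.1% (41.8% to 45.6%). The share of occupied genes whose highest peak also lay on a protein-coding gene in both lists was 75.8%. It was 82.7% and 86.7% at the stricter thresholds, and 73.7% to 75.4% from one list alone. The cause was not tested.

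Bases of the non-coding genes inside, within 500 bp of and farther from protein-coding genes were covered to 17.6%, 7.92% and 5.07% for −log10 q 5 or more and to 9.56%, 4.05% and 2.34% for 10 or more, thresholds applied after seeing the data. Their ratios to other bases ran from 1.77 to 2.09, 1.96 to 2.04 and 4.07 to 7.75. One list alone gave 21.6% to 21.7%, 10.9% to 12.2% and 7.58% to 8.54%. No paired analysis was possible because the replicates form 1 group with no control list. Peak lists hold no depth, so a gene without a peak is not shown to be unbound.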
